A study of Mus musculus with 35 samples.

Results

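The organizer and axial mesendoderm genes examined here were Foxa2, Gsc, Chrd, Nog, Shh, Noto and Foxj1. They were taken by symbol from the deposited expression table, in which 7 of 54446 genes were these members, and each was followed across all 27 bulk RNA libraries. The libraries, 3 for each of 9 groups, came from mice or mouse cells taken as wild type apart from reporter lines. A reporter line was used at E4.5. The paper derived cultures from both LifeAct-GFP reporter and wild-type CD1 embryos, and does not say which gave the embryo-derived libraries. Nor does it say which ESC line gave the other culture libraries. In the embryo, 5 stages were sampled without treatment, labelled as CD-1: inner cell mass (ICM) at E3.5 and epiblast at E4.5 to E7.5 in steps of a day, where E gives days after conception. Each library pooled several embryos. The ICM was cut out with a laser, E4.5 epiblast cells were picked after immunosurgery as those lacking the primitive endoderm reporter Pdgfrα:H2B-GFP, and extra-embryonic tissues were dissected away from the later stages. The paper took embryos from CD1 or reporter matings, so mouse line and stage cannot be told apart at E4.5. In culture, 4 groups were sampled. Epiblast-like cells (EpiLCs) were embryonic stem cells (ESCs) kept for 48 h in FGF2 and ActivinA. 2D epiblast stem cells (EpiSCs) were converted from ESCs in the same factors on a flat surface. ESC-derived and embryo-derived 3D EpiSCs grew in Matrigel with FGF2, ActivinA, the Wnt pathway inhibitor XAV and Noggin protein, and the latter began from E5.5 epiblasts. All cultures thus had FGF2 and ActivinA, but ActivinA was at a higher dose and in another base medium in 3D than in 2D. Dimension, matrix, base medium, ActivinA dose, XAV and Noggin therefore cannot be told apart between 2D and 3D. Likewise, the origin and the lines used cannot be told apart between the 3D cultures. As the 2D cells came from ESCs, embryo-derived 3D cells differ from them in origin as well.

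The organizer is the region at the front of the mouse primitive streak, and later the node, from which prechordal plate, notochord and definitive endoderm arise. Nodal signalling at high level induces Gsc and Foxa2 in the anterior streak. Foxa2 is a forkhead factor of anterior streak, endoderm, node and floor plate, and Gsc is a homeobox factor of the anterior streak and prechordal plate. Chordin (Chrd) and Noggin (Nog) are secreted proteins that bind BMP ligands and keep them from their receptors. Noto is a homeobox factor of node and notochord, Shh is the ligand that notochord and floor plate secrete to pattern neighbouring tissue, and Foxj1 is the forkhead factor that switches on genes of motile cilia, which the node uses to set left and right.

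In the mm10 coordinates of the deposited table, Foxa2 lay on chromosome 2 (148042877 to 148046969, minus strand), Gsc on chromosome 12 (104471209 to 104473330, minus), Chrd on chromosome 16 (20733127 to 20742384, plus) and Nog on chromosome 11 (89300638 to 89302332, minus). Shh lay on chromosome 5 (28456815 to 28467256, minus), Noto on chromosome 6 (85423886 to 85428877, plus) and Foxj1 on chromosome 11 (116330704 to 116335399, minus). These spans cover the whole gene, exons and introns alike, and the values are per gene. Chrd overlaps Thpo, and Shh overlaps the long non-coding genes 9530036O11Rik and Gm26894, each on the opposite strand. The library kits keep strand, but the sources used here do not state that the counting used it, so the levels of Chrd and Shh are uncertain to that extent.

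Promoter sequence from RefSeq was held for 4 of the 7 members, Foxa2, Gsc, Chrd and Noto. The stretches before the start sites of Foxa2, Gsc and Noto are shown because these transcription factors had the most different courses through gastrulation (see the stage values that follow). Windows of 300 bases were searched on both strands for 6 short motifs. The forkhead motif TGTTTAC was held by 3.65% of the 32851 such windows in the genome, and its variant with a later guanine, TGTTTGC, by 5.07%. The bicoid-type homeobox motif TAATCC was held by 7.06%, the Foxh1 motif AATCCACA by 0.855%, the T-box motif TCACACCT by 1.28% and the GLI motif GACCACCCA by 0.253%. In the members, the search found 1 match, the reverse complement of the forkhead variant starting 16 bases before the start of Noto, shown in capitals. The stretches (5′ to 3′ along each gene, GRCm38.p6) are chr6:85423636-85423885 on the plus strand for Noto, and chr12:104473331-104473486 and chr2:148046970-148047219 on the minus strand for Gsc and Foxa2.
Noto: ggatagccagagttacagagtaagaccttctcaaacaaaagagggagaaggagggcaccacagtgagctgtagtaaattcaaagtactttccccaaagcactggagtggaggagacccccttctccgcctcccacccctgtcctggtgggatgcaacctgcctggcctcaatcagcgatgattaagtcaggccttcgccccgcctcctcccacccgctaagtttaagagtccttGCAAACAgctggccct
Gsc: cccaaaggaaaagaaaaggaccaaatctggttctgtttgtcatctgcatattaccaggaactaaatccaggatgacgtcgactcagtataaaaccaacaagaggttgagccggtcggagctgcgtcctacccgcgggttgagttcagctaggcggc
Foxa2: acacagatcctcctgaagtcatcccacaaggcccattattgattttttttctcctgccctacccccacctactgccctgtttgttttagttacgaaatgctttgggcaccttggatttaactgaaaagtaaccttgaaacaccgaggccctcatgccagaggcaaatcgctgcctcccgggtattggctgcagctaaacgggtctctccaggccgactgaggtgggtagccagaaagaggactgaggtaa
A match is a run of letters and not a bound site, and the lack of one says only that these letters were not in the window.

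Levels are given in TPM, a share of all transcripts scaled to a fixed total, a unit that corrects for gene length and library size but keeps no read depth, so the depth behind each value is unknown. A value of 0 means that the gene was listed at 0. Fold changes are differences of log2(TPM + 1) from limma, which understate the change of low genes, and a gene was called when the adjusted p was below 0.05 and the absolute log2 fold change above 1. Embryo and culture libraries were prepared with different kits (total RNA with ribosomal depletion against poly-A selection), so they were tested apart and are only set side by side. The 3 libraries of a group are replicates by label. P-values rest on the spread within groups, pooled over all groups of the embryo or culture fit and drawn towards that of other genes. They do not measure the spread of the compared groups alone.

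Some libraries stood apart or unusually close. ESC-derived 3D replicate 3 differed from replicates 1 and 2 by a median absolute log2 difference of 0.271 and 0.269 over tested genes, while replicates 1 and 2 differed by 0.0610. Embryo-derived 3D replicates 2 and 3 (0.0569) and 2D replicates 1 and 2 (0.0649) were as close, against 0.131 to 0.271 for other culture pairs. Summed levels of visceral endoderm markers, 10 genes with Ttr, Afp and Apoa1 among them, ran from 882 to 940 TPM at E5.5, 1494 to 1571 at E6.5 and 1686 to 1743 at E7.5, with all 10 above 1 TPM on average. They ran from 107 to 136 TPM at E3.5 and E4.5, where Rbp4, Fgb and Afp were listed at 0, and from 1.54 to 15.8 in culture, where 2 or 3 of the 10 were listed at 0 in every library of a group (Fgb and Ttr or Afp, with Apoa4 in EpiLCs, and Ttr and Afp in embryo-derived cells). Foxa2 and Gsc are also expressed in visceral endoderm, a tissue that the dissection was meant to remove, and its part in the embryo results was not tested. Primitive endoderm markers summed to 660 to 690 TPM at E3.5 and 207 to 236 at E4.5. They were higher again later, at 248 to 255 TPM at E5.5, 315 to 342 at E6.5 and 375.7 to 392.5 at E7.5. Epiblast markers were present in every group, at 2646 to 3580 TPM at E5.5 and E6.5 and 825 to 870 at E7.5, when mesoderm markers had reached 330 to 346 from 74.9 to 109 at E6.5. Before that, mesoderm markers summed to 111 to 118 TPM at E3.5, 30.5 to 42.1 at E4.5 and 11.1 to 13.8 at E5.5. Extra-embryonic ectoderm markers ran from 449 to 477 TPM at E3.5, 390 to 394 at E4.5, 14.7 to 33.7 at E5.5 and E6.5, and 149 to 164 at E7.5, and neural plate markers from 76.9 to 81.6 at E7.5. Of the 7 extra-embryonic ectoderm markers, 5 were above 1 TPM on average at E6.5 and 4 at E7.5, so the higher sum rests on part of the list. Hand1 is on this list and on the mesoderm list. The E7.5 libraries are therefore called E7.5 epiblast only by their label.

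**Figure D1:**
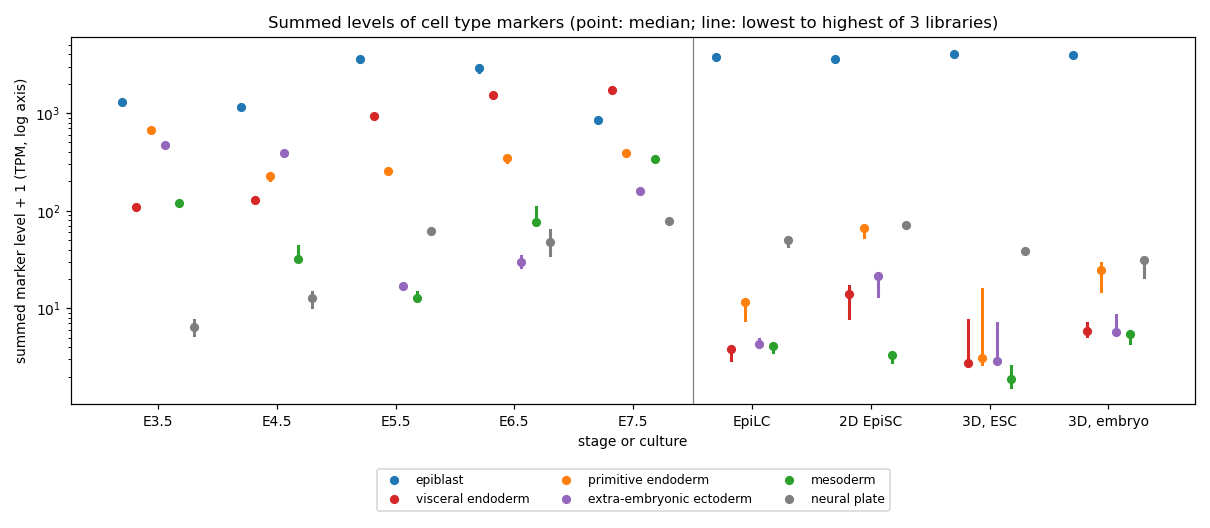
Summed TPM of 6 marker lists (log axis, 1 TPM added) in the 5 embryo stages and 4 cultures, with the median as a point and the lowest to highest of 3 libraries as a line. Visceral endoderm markers lie between 882 and 1743 TPM from E5.5 on and at or under 15.8 in culture.

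The stage series asks when each gene is switched on as the epiblast passes from implantation to gastrulation. The members followed 3 courses. Foxa2 and Gsc were present at E3.5, lower at E4.5 and highest at E6.5. Nog, Chrd and Foxj1 were at most 0.942 TPM up to E4.5 and at least 1.65 from E5.5 on, and Shh and Noto were at most 1.15 TPM until E7.5.

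Foxa2 stood at 8.14, 9.45 and 8.70 TPM at E3.5 and at 4.19, 3.91 and 3.51 at E4.5. It was 13.8, 14.7 and 14.7 TPM at E5.5, 35.2, 33.0 and 28.02 at E6.5, and 15.6, 14.6 and 16.2 at E7.5. The E6.5 libraries were higher than those of any other stage, and E5.5 and E7.5 overlapped. Between neighbouring stages its log2 fold change was -1.004 (SE 0.10, adjusted p = 1.06e-06) into E4.5, 1.67 (SE 0.10, adjusted p = 4.24e-09) into E5.5 and 1.09 (SE 0.10, adjusted p = 1.08e-05) into E6.5. From E6.5 to E7.5 it was -0.998 (SE 0.10, adjusted p = 2.08e-06), a size that stayed just under the fold threshold. With TPM rescaled to equalise the median gene it was -1.32 and called, and with a pseudocount of 0.1 it was -1.04 and called. It was also called in 3 of 6 fits leaving out a library. The step into E4.5 lost its call on the same rescaling, at -0.91, and without E4.5 replicate 3 or E3.5 replicate 2, at -0.95 in each.

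Gsc moved further in both directions. It stood at 3.91, 2.71 and 4.05 TPM at E3.5, and at E4.5 it was listed at 0 in replicates 1 and 3 and at 1.15 in replicate 2. It was 13.4, 10.2 and 13.5 TPM at E5.5 and 39.2, 30.6 and 29.9 at E6.5, where it matched Foxa2 in level, at 33.3 ± 5.17 against 32.1 ± 3.67 TPM (SD, n = 3). At E7.5 it was 0.913, 1.08 and 0.984 TPM. No E7.5 library came near those of E6.5 or E5.5, but the E7.5 and E4.5 values overlapped. The log2 fold changes were -1.81 (SE 0.25, adjusted p = 3.38e-05) into E4.5, 3.37 (SE 0.25, adjusted p = 5.11e-08) into E5.5, 1.35 (SE 0.25, adjusted p = 0.00393) into E6.5 and -4.09 (SE 0.25, adjusted p = 1.91e-08) into E7.5. The rise into E6.5 was not called with a pseudocount of 0.1, at 1.42 with an adjusted p of 0.254, and over its alternatives the adjusted p ran from 0.00256 to 0.254. So at E7.5 the level of Foxa2 was close to that of E5.5 while Gsc was at 0.992 ± 0.0835 TPM (SD, n = 3). Over the same step, 1 of the 10 visceral endoderm markers was called higher and 0 lower, with a median of 0.02, and on rescaled TPM 0 were called and the median was -0.32. Into E5.5, 9 of these 10 markers were called higher (median 5.18), and into E6.5 1 was (median 0.695). Their part in the rises and in the lower levels was not tested.

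The BMP antagonists had lower peaks than Foxa2 and Gsc. Chrd, at or below 0.841 TPM in all E3.5 and E4.5 libraries, was 1.65, 1.75 and 1.86 TPM at E5.5, 4.54, 2.54 and 3.22 at E6.5, and 5.63, 5.35 and 6.94 at E7.5. Its libraries did not overlap between neighbouring stages from E4.5 to E7.5, yet no step between neighbouring stages passed the fold threshold. The log2 fold changes were 0.78 (adjusted p = 0.00179) into E5.5, 0.66 (adjusted p = 0.0308) into E6.5 and 0.67 (adjusted p = 0.00622) into E7.5, and 0.39 into E7.5 on rescaled TPM (adjusted p = 0.115). Thpo, the thrombopoietin gene on the other strand, was 0.353, 0.595 and 0 TPM at E4.5, 3.27, 0.800 and 1.91 at E5.5, and between 1.14 and 1.76 at E6.5 and E7.5. It was thus higher at E5.5 than at E4.5 along with Chrd, and its part in the Chrd value was not tested. Nog was 0.202, 0.749 and 0.472 TPM at E3.5, and 0.130, 0.942 and 0.0630 at E4.5. It was 3.37, 3.70 and 2.86 TPM at E5.5, 5.65, 3.85 and 3.57 at E6.5, and 4.24, 3.45 and 4.35 at E7.5. Its rise into E5.5 was called (log2 fold change 1.70, SE 0.22, adjusted p = 1.33e-05), and the 3 later stages overlapped. The change from E6.5 to E7.5 was -0.08, with a 95% interval from -0.55 to 0.39.

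Shh was listed at 0 in all libraries of E3.5 and E6.5, at 0, 0 and 1.15 TPM at E4.5 and at 0, 0.489 and 0.218 at E5.5. At E7.5 it was 4.55, 4.76 and 4.28 TPM, above all libraries of the other stages, with a log2 fold change from E6.5 of 2.47 (SE 0.23, adjusted p = 1.83e-06). The overlapping Gm26894 was 0.333, 1.93 and 1.02 TPM at E7.5 and at 0 in 11 of the 12 earlier libraries, and its part in the Shh value was not tested. Noto was at most 0.640 TPM before E7.5 and then 7.27, 4.78 and 6.02 TPM, with a log2 fold change of 2.42 (SE 0.17, adjusted p = 8.44e-08). Both genes passed the filter on low values through the E7.5 libraries alone, so that they differed there was set by the filter. On this bulk scale more cells with a transcript and more RNA per cell cannot be told apart.

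Foxj1 was listed at 0 in all 6 libraries of E3.5 and E4.5. It was 1.84, 2.16 and 1.68 TPM at E5.5, 4.74, 3.83 and 3.86 at E6.5, and 5.49, 5.40 and 5.49 at E7.5. Each stage from E5.5 on was above the one before in every library. The step into E5.5 was called (log2 fold change 1.53, SE 0.09, adjusted p = 3.14e-09). The steps into E6.5 and E7.5 were 0.83 (adjusted p = 5.50e-05) and 0.33 (adjusted p = 0.00500), under the fold threshold, and the last was 0.05 on rescaled TPM.

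**Figure D2:**
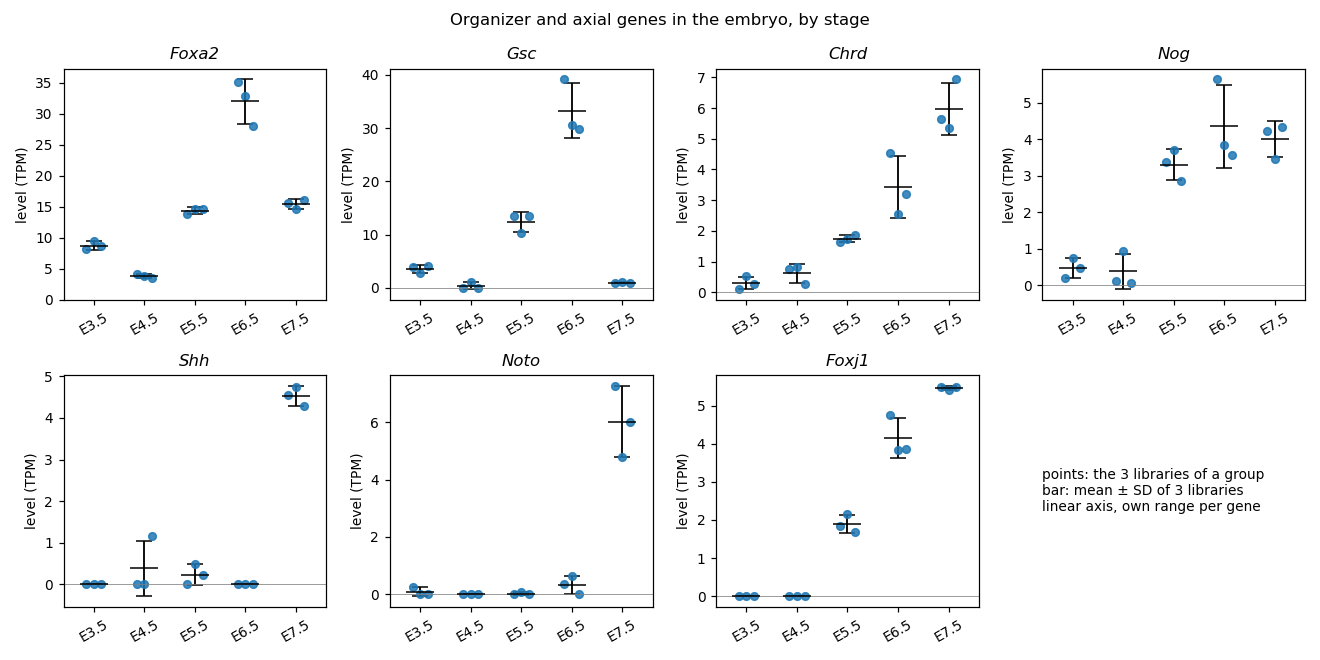
TPM of the 7 genes (linear axes, a range of its own for each) by stage, with the 3 libraries of each stage as points and their mean ± SD as a bar. Foxa2 and Gsc peak at E6.5, at 32.1 and 33.3 TPM on average, while Shh and Noto rise at E7.5 to 4.53 and 6.02.

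Read against all genes, the steps were unequal. Into E4.5, 2 of the 7 members were called, both lower, where 5.88% of the 11880 tested genes were called higher and 11.9% lower. Into E5.5, 4 were called, all higher, against 14.9% higher and 9.47% lower, and the median of all tested genes was 0.16 and 0.03 after rescaling. The fragmentation conditions of the libraries also changed between E4.5 and E5.5 and cannot be told apart from stage there. Into E6.5, 2 members were called, both higher, where only 0.715% of tested genes were called higher and 0.480% lower. The median member changed by 0.66 on the log2 scale and the median of all tested genes by -0.06. The median of the 10 visceral endoderm markers changed by 0.695 over this step, and their part was not tested. Into E7.5, 10.6% of all tested genes were called higher and 1.94% lower. Of the 5 members whose passing of the filter did not rest on E7.5 alone, 0 were called higher and 1, Gsc, lower. The calls of Shh and Noto, both higher, are not read against these shares. Here the median of all tested genes was 0.31, and 0.01 after rescaling, when 733 genes were called higher and 385 lower instead of 1265 and 231. Shh, Noto and Gsc kept their calls on rescaled TPM, at 2.25, 2.18 and -4.29.

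The culture comparisons ask how far cells kept in a primed state carry this programme, and how it differs between the 2D and 3D cultures. EpiLCs had almost none of it apart from Foxj1 and Chrd. The EpiSCs of all kinds had Foxa2, Gsc, Chrd and Foxj1, and embryo-derived 3D EpiSCs had the highest mean of each. Nog and Shh were highest in 2D EpiSCs, and Noto was low in every culture. Of the 7 members, 5 passed the filter on low values, Nog only through the 2D libraries, and Shh and Noto did not pass.

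Foxa2 was 0.721, 0.559 and 0.602 TPM in EpiLCs and 33.0, 30.4 and 24.7 in 2D EpiSCs. It was 32.6, 32.5 and 17.2 TPM in ESC-derived and 122.7, 50.1 and 50.6 in embryo-derived 3D EpiSCs. The embryo-derived libraries were above all others, and the 2D and ESC-derived values overlapped. Embryo-derived replicate 1 held the highest value, and without it the log2 fold change over 2D fell from 1.19 (SE 0.32, adjusted p = 0.0148) to 0.77 and was no longer called. Without 2D replicate 3 it was 1.08 with an adjusted p of 0.0564. That of ESC-derived against embryo-derived cultures was -1.33 (SE 0.32, adjusted p = 0.0157), and -0.91 without that library. It was also not called when only the compared groups were fitted (adjusted p = 0.0864) or when near-identical replicates were averaged (adjusted p = 0.0574). Between ESC-derived 3D and 2D cells Foxa2 changed by -0.14, with a 95% interval from -0.84 to 0.57, and by 0.11 on rescaled TPM.

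Gsc was listed at 0, 0.0999 and 0.387 TPM in EpiLCs. It was 26.97, 28.2 and 34.0 TPM in 2D EpiSCs, 6.37, 5.95 and 16.1 in ESC-derived and 38.6, 35.9 and 36.0 in embryo-derived 3D EpiSCs. The 4 groups did not overlap. ESC-derived 3D EpiSCs, whose Foxa2 overlapped that of 2D cells, were lower in Gsc, with a log2 fold change of -1.68 (SE 0.28), which ran from -2.09 to -1.45 over fits leaving out a library. Against embryo-derived 3D EpiSCs it was -1.98 (SE 0.28, adjusted p = 7.34e-04). Embryo-derived and 2D cells differed by 0.31, with a 95% interval from -0.30 to 0.91.

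Chrd was 2.08, 2.56 and 2.05 TPM in EpiLCs and 10.4, 9.27 and 8.23 in 2D EpiSCs. It was 7.30, 6.88 and 17.4 TPM in ESC-derived and 61.1, 38.9 and 37.8 in embryo-derived 3D EpiSCs. The embryo-derived libraries were far above the rest, with log2 fold changes of 2.16 over 2D (SE 0.28, adjusted p = 1.79e-04) and 3.83 over EpiLCs (SE 0.28, adjusted p = 5.63e-07). ESC-derived 3D and 2D cells differed by 0.05, with a 95% interval from -0.57 to 0.68, and by -0.34 without ESC-derived replicate 3. Thpo on the other strand was 1.14, 2.06 and 2.18 TPM in EpiLCs, 6.63, 6.79 and 5.43 in 2D, 2.67, 2.47 and 7.81 in ESC-derived and 14.6, 9.02 and 6.36 in embryo-derived cells, so its lowest and highest means lay in the same groups. Its part in the Chrd level was not tested.

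Nog had another order than Chrd. It was 2.20, 2.58 and 2.09 TPM in 2D EpiSCs and at most 0.458 in all other cultures, where ESC-derived replicates 1 and 2 were listed at 0. The log2 fold change of 3D over 2D was -1.53 (SE 0.14, adjusted p = 1.85e-05) for ESC-derived and -1.47 (SE 0.14, adjusted p = 1.65e-05) for embryo-derived cells, and both 3D media held Noggin protein. As Nog passed the filter through the 2D libraries alone, that it differed from 2D was set by the filter. The 3D cultures differed from each other by -0.06, with a 95% interval from -0.37 to 0.24.

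Shh followed Nog in outline, at 2.35, 2.65 and 1.42 TPM in 2D EpiSCs, 0.0645, 0.0989 and 1.04 in ESC-derived and 0.159, 0.459 and 0.434 in embryo-derived cells, and 0 in EpiLCs. The 2D libraries were above all others. Without the filter on low values its log2 fold change over 2D was -1.21 (adjusted p = 0.00489) in ESC-derived and -1.20 (adjusted p = 0.00583) in embryo-derived cells. Noto was 0.730, 0.698 and 1.47 TPM in embryo-derived cells, 0.926, 0.559 and 0.312 in 2D EpiSCs, at most 0.133 in ESC-derived cells and 0 in EpiLCs. No culture library reached the lowest E7.5 value of either gene.

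Foxj1 was the member most abundant in EpiLCs, at 13.1, 10.1 and 13.3 TPM. It was 23.3, 22.0 and 18.1 TPM in 2D EpiSCs, 9.56, 8.69 and 20.9 in ESC-derived and 42.6, 34.8 and 37.2 in embryo-derived 3D EpiSCs. ESC-derived values spanned from below EpiLCs to within the 2D range, and the embryo-derived libraries were above all others. The log2 fold change of embryo-derived cells was 1.58 over EpiLCs (SE 0.25, adjusted p = 2.77e-04) and 0.83 over 2D (adjusted p = 0.0271), the latter under the fold threshold. ESC-derived cells differed from EpiLCs by 0.00, with a 95% interval from -0.55 to 0.56. Without ESC-derived replicate 3, their change against 2D grew from -0.75 to -1.12 and was called.

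**Figure D3:**
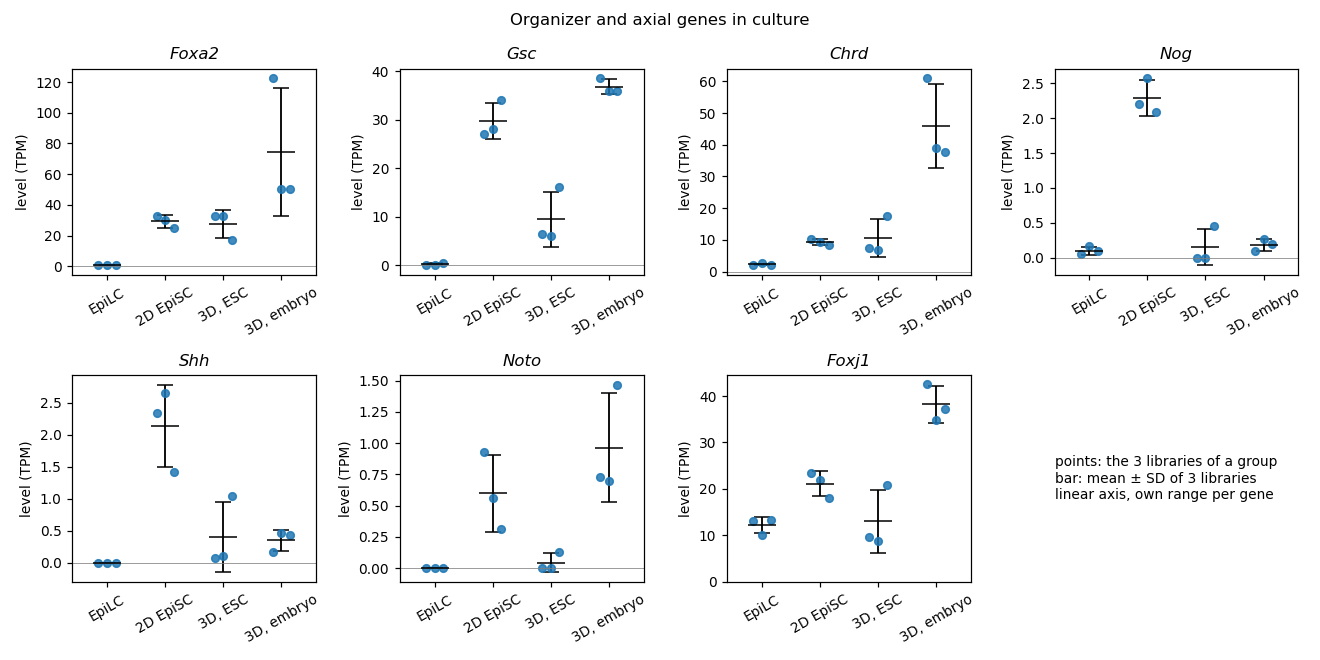
TPM of the 7 genes (linear axes, a range of its own for each) in EpiLCs, 2D EpiSCs and both 3D EpiSC cultures, with 3 libraries per group as points and their mean ± SD as a bar. Chrd and Foxj1 are highest in embryo-derived 3D EpiSCs, at 45.9 and 38.2 TPM on average, and Nog in 2D EpiSCs, at 2.29.

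Over EpiLCs, 3 of the 5 members tested were called in ESC-derived 3D cells, 4 in those from embryos and 4 in 2D cells, all higher. The call of Nog in 2D cells was set by the filter, and 3 of the other 4 members were called there. Of the 11541 genes tested, 5.33%, 10.5% and 15.2% were called higher in these comparisons, and 7.11%, 8.28% and 5.14% lower. These comparisons share the EpiLC libraries. In 2D EpiSCs the calls were Foxa2 at 4.21, Gsc at 4.73, Chrd at 1.67 and Nog at 1.58. In embryo-derived cells Foxa2 was 5.40 and Gsc 5.04, and in ESC-derived cells Foxa2 was 4.07, Gsc 3.05 and Chrd 1.72. In the 2D comparison the median of all tested genes was 0.18 and became -0.04 after rescaling, with 1307 genes higher and 804 lower instead of 1756 and 593. In the embryo-derived comparison it was 0.10 and became -0.01.

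Against 2D EpiSCs, 2 members were called lower in ESC-derived 3D EpiSCs (Gsc and Nog), where 0.633% of genes were called higher and 9.25% lower. For the cells from embryos these shares were 1.07% and 7.75%, and Foxa2 and Chrd were called higher and Nog lower. In both comparisons the call of Nog was set by the filter. The median of all tested genes was -0.08 there and 0.03 after rescaling. Between the 3D cultures, Foxa2, Gsc, Chrd and Foxj1 were called lower in the ESC-derived cells, where 1.98% of genes were called higher and 1.98% lower. With near-identical replicates averaged, Gsc, Chrd and Foxj1 kept this call. That median was -0.21 between ESC-derived 3D and 2D cells and 0.02 after rescaling, when 151 genes were higher and 690 lower instead of 73 and 1068. Between the 3D cultures it was -0.12 and became 0.01, with 276 higher and 145 lower instead of 228 and 229.

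**Figure D4:**
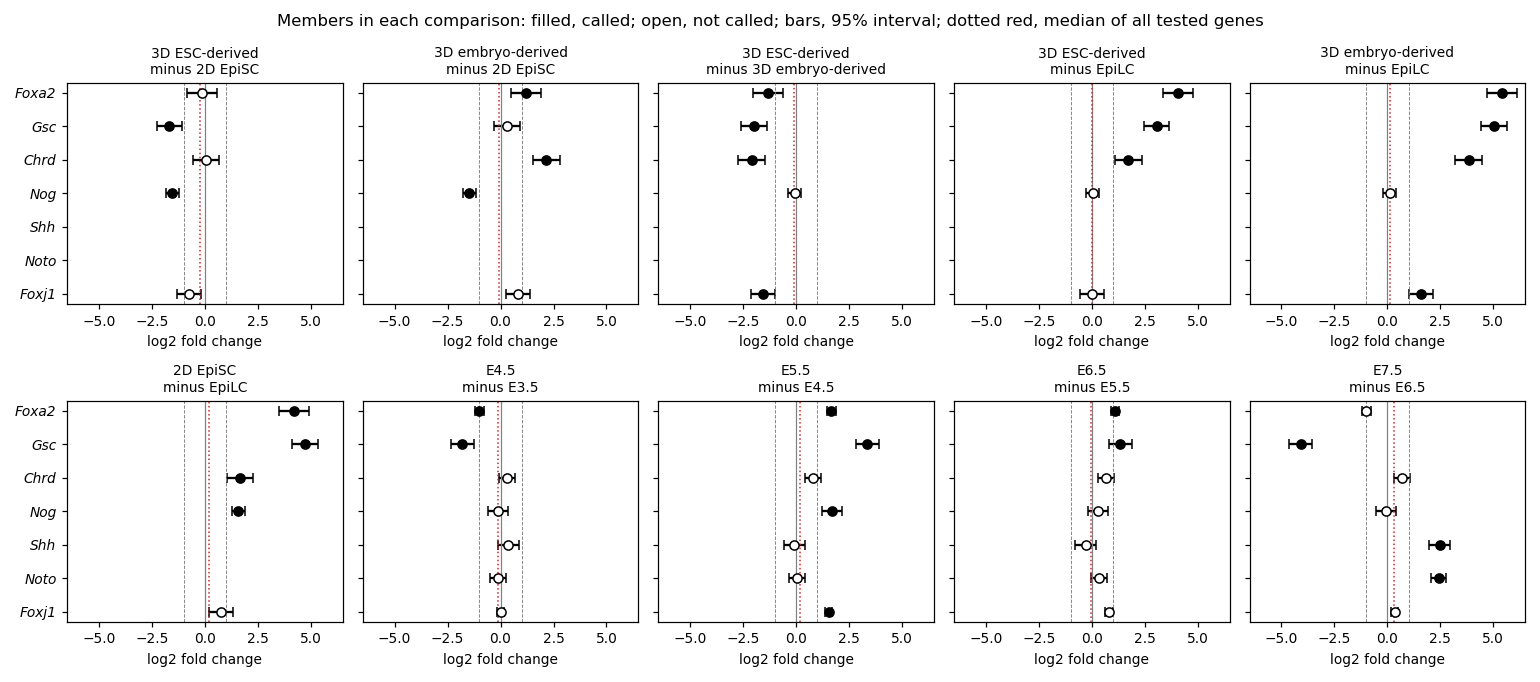
Log2 fold change of each member in the 10 comparisons, with its 95% interval, filled where called and open where not, beside the median of all tested genes (dotted red). Gsc swings from 1.35 into E6.5 to -4.09 into E7.5, and Shh and Noto have no point in culture because they did not pass the filter.

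Lists of related genes set the members beside their programmes, and no list holds a member. The lists were chosen with earlier results of these data known, so they serve as a description and not as a test. Their counts stand against the shares of all tested genes given above, which were 14.9% higher into E5.5, 0.715% into E6.5 and 10.6% into E7.5. The anterior mesendoderm list held 14 genes, all tested, chosen as partners of the members in the anterior streak and its endoderm. They are not confined to these tissues, as the summed list was highest in the embryo at E3.5, at 1481 to 1609 TPM. Into E6.5, 4 were called higher, with a median of 0.63 against -0.06 for all tested genes. Mixl1 and Eomes, factors of streak mesendoderm, changed by 2.31 and 1.03, Lhx1, a homeobox factor of the anterior streak, by 1.24 and Upp1 by 1.19. Into E7.5, 5 were called lower and 1 higher (median -0.36), and the higher call was lost without E7.5 replicate 1 or E6.5 replicate 2. Eomes changed by -4.99, Mixl1 by -3.10, Foxq1 by -2.84 and Lhx1 by -2.48, in the direction of Gsc. Eomes was 173, 159 and 146 TPM at E6.5 and 3.70, 5.09 and 3.52 at E7.5. Over EpiLCs, 13 of the 14 were called higher and 1 lower in 2D EpiSCs (median 4.07), 12 and 1 in embryo-derived cells (median 2.63), and 6 and 1 in ESC-derived cells (median 0.93). The 6 became 3 without EpiLC replicate 1, 2 or 3. Cer1, a secreted inhibitor of Nodal and BMP, led in 2D EpiSCs at 8.43 and Lhx1 followed at 6.40. Against 2D EpiSCs 11 of the 14 were called lower in ESC-derived cells (median -3.01), led by Cer1 at -4.97 and Lhx1 at -4.30, and 5 lower and 1 higher in embryo-derived cells (median -1.33). The 5 became 2 without embryo-derived replicate 1, 2D replicate 1 or 2D replicate 2, and 3 without 2D replicate 3. ESC-derived replicate 3 held 119 TPM of Cer1 and 22.6 of Lhx1, and the other replicates at most 2.44 and 1.64.

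The node and notochord list held 14 genes, 13 of them tested, among them the notochord factor T and the Nodal pathway genes Nodal, Lefty1 and Lefty2. Into E6.5, T (2.36) and Lefty2 (1.43) were called higher. Into E7.5, 6 were called higher and 4 lower (median 0.80), and 5 and 5 on rescaled TPM. But 4 of the 6 passed the filter through the E7.5 libraries alone, so that they differed was set by the filter, and of the other 9 genes 2 were higher and 4 lower, with a median of -0.99. Nkx1-2, a homeobox gene of the caudal epiblast and 1 of those 4, was higher by 5.67, while Lefty1, Nodal and Lefty2 changed by -3.64, -3.62 and -3.26. T was 31.0, 28.1 and 30.3 TPM at E6.5 and 98.4, 97.9 and 93.1 at E7.5. Nodal was 19.5, 18.2 and 19.1 TPM at E6.5 and 0.300, 0.528 and 1.16 at E7.5, so its level fell with that of Gsc while Shh, Noto and T were higher. In 2D EpiSCs against EpiLCs, 6 were called higher and 1 lower, with Cfc1, a Nodal co-receptor, at 4.23, T at 3.99 and Gdf1 at -2.23.

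The Hedgehog list held 17 genes of ligand release, reception and response, 14 of them tested in the embryo. Into E7.5, when Shh appeared, 7 were called higher (median 1.09), and 6 on rescaled TPM. Foxf1, a mesodermal target, and the co-receptor Boc were higher by 4.28 and 2.46, but passed the filter through the E7.5 libraries alone, which set that they differed. Of the other 12 genes 5 were called higher (median 0.96), among them the response factors Gli1 and Gli2, which rose by 2.05 and 1.64. Gli1 was 3.15, 3.89 and 2.71 TPM at E6.5 and 14.7, 17.6 and 17.2 at E7.5. The paralog Ihh, a ligand of visceral endoderm, was 4.18, 3.86 and 1.90 TPM at E6.5 and 7.52, 5.61 and 4.88 at E7.5, so Shh was not the only Hedgehog ligand with RNA there. Into E5.5, before Shh, 8 of the 14 were called higher (median 1.15), where 14.9% of all tested genes were, led by Smo, the signal transducer, at 3.44. In culture 12 were tested. Against 2D EpiSCs 3 were called lower in ESC-derived and 2 in embryo-derived cells, and 0 higher in either. Gli1 and Ptch1, the receptor that is itself a target, were lower in 3D than in 2D EpiSCs, by -1.99 and -1.93 in ESC-derived and -1.27 and -1.80 in embryo-derived cells. Ptch1 was 37.1, 32.7 and 44.9 TPM in EpiLCs, where Shh was listed at 0, and 36.4, 35.4 and 24.0 in 2D EpiSCs. A part of Shh in these levels was not tested.

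For Chrd and Nog, the lists held BMP ligands and receptors, other antagonists, and response genes. Into E7.5, 2 of 8 tested ligand and receptor genes were called higher, Bmp7 at 2.36 and Bmp4 at 1.86 (list median 0.59). Of 8 response genes 5 were called higher (median 1.21), and 4 higher and 1 lower on rescaled TPM. Among them Msx2 rose by 2.51, the inhibitory Smad6 by 1.58 and Msx1 by 1.47. Among the other antagonists Fstl1 was called higher, at 1.83. Over EpiLCs, 2D EpiSCs had 4 of 6 response genes higher (median 1.45), led by Id1 at 3.36, 4 of 9 ligand and receptor genes higher (median 0.85), led by Bmp2 at 4.00, and 1 of 4 antagonists higher, Fstl1 at 2.82. Against 2D EpiSCs, 1 of the 6 response genes was called higher and 2 lower in each 3D culture (medians of -0.54 in ESC-derived and -0.75 in embryo-derived cells). The higher one was in both cases the inhibitory Smad7, at 1.09 and 1.202. Id1 was called lower in both, at -2.55 in ESC-derived and -1.90 in embryo-derived cells, with Id3 at -1.16 in the former and Id2 at -1.24 in the latter. The call of Id3 was lost on rescaled TPM, at -0.91, and without ESC-derived replicate 3. Id1 was 84.8, 89.5 and 41.8 TPM in 2D and 10.8, 8.17 and 14.3 in ESC-derived cells, and 21.4, 15.6 and 16.4 in embryo-derived cells. Smad7 was 19.4, 17.0 and 20.1 TPM in 2D, 40.7, 38.6 and 44.0 in ESC-derived and 47.0, 43.4 and 43.2 in embryo-derived cells. The 2D libraries were thus above all 3D libraries in Id1 and below them in Smad7.

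The motile cilia list held 30 genes, of which 12 were tested in the embryo and 10 in culture. Into E5.5, the step at which Foxj1 was called, 4 were called higher and 4 lower, with a median of 0.14 against 0.16 for all tested genes. Into E7.5, 6 were called higher (median 0.92), and 4 on rescaled TPM. Dynlrb2, a dynein light chain, went from 0 in all E6.5 libraries to 6.51, 4.32 and 3.81 TPM (log2 fold change 2.53), and Tekt1, a tektin of the axoneme, was higher by 1.59. Both passed the filter through the E7.5 libraries alone, which set that they differed. Of the other 10 genes 4 were called higher (median 0.71), and 3 without E7.5 replicate 2. Among them Tppp3 rose by 2.00 and Dnaaf3, a dynein assembly factor, by 1.58. The summed list was 42.6 to 59.7 TPM at E6.5 and 100 to 102 at E7.5, with 7 and 19 of 30 genes above 1 TPM on average, while Foxj1 itself changed by 0.33. In culture Foxj1 was higher than at any stage in every library (8.69 to 42.6 against at most 5.49 TPM, across kits), but the summed list stayed at 31.7 to 88.2 TPM and was highest in EpiLCs. In embryo-derived cells over EpiLCs, 3 of the 10 were called higher and 4 lower, with Rfx3, a ciliary transcription factor, at 1.84, and Rsph1 and Ccno at -3.12 and -2.66. Dynlrb2 was at most 0.343 TPM in every culture library.

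The paralogs list held 9 genes, 5 tested in the embryo and 4 in culture. Foxa1 and Foxa3, the closest relatives of Foxa2, rose into E5.5 by 1.82 and 1.38. Foxa1 was 7.11, 5.99 and 4.69 TPM at E6.5 and 10.4, 11.3 and 9.38 at E7.5, so that unlike Foxa2 its level did not drop there. Foxa1 was higher in 2D EpiSCs than in EpiLCs by 2.74 and lower in ESC-derived 3D than in 2D cells by -2.04. Gsc2, the paralog of Gsc, did not pass the filter in either set.

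**Figure D5:**
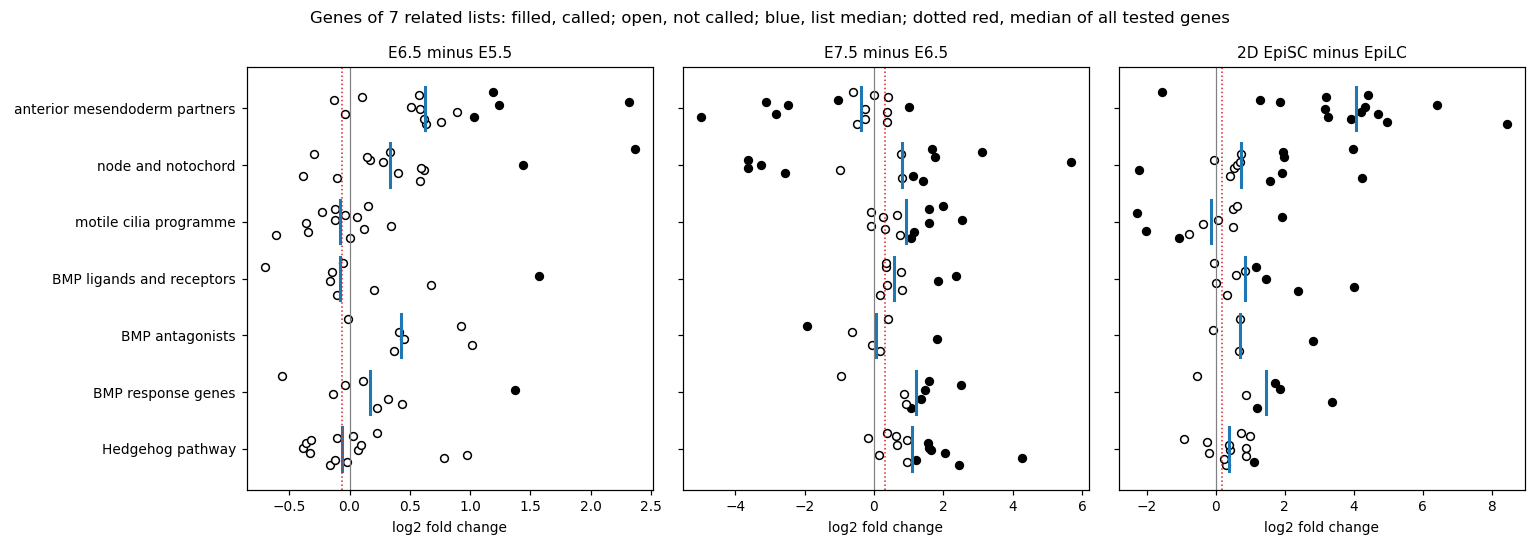
Log2 fold change of the tested genes of 7 related lists in 3 comparisons, filled where called and open where not, with the list median in blue and the median of all tested genes in dotted red. Anterior mesendoderm genes shift from a median of 0.63 into E6.5 to -0.36 into E7.5, while Hedgehog genes, 2 of which passed the filter at E7.5 alone, shift to 1.09.

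Pearson's r of log2(TPM + 1) across libraries describes which patterns were alike. The points share stage or culture and, in pairs, near-identical replicates, so r is given without a p. Over the 15 embryo libraries, Shh and Noto had r = 0.92, Chrd and Foxj1 0.96, Nog and Foxj1 0.94, Foxa2 and Gsc 0.80, and Gsc and Shh -0.50. Over the 12 culture libraries, Nog and Shh had 0.95, Foxa2 and Gsc 0.92, Chrd and Foxj1 0.86, and Chrd and Nog 0.04. Chrd and Nog had 0.89 in the embryo. In culture, Nog passed the filter on low values only through the EpiSCs grown on a flat surface, and Shh did not pass. In the embryo, Shh and Noto passed only through the last stage. The r of Nog and Shh in culture, and of Shh and Noto in the embryo, thus mostly sets that group against the rest. The same holds for their nearest genes there. Whether Chrd and Nog went together among the other cultures cannot be read from 0.04, as Nog was near the floor in them. Among all other tested genes, those nearest to each member in the embryo (up to 3) were Hist1h4k, Amn and Clic1 for Foxa2 (0.95 to 0.96), Adamts9, Hkdc1 and Lzts1 for Gsc (0.89 to 0.93), Dll3 and Fam20c for Chrd (0.98 each), Hey1, Parm1 and Mepce for Nog (0.97 to 0.98), Dlx3, Ttc21a and Zfp503 for Shh (0.97), Pax3, Foxc1 and Scube1 for Noto (0.99) and Sp5, Cdhr2 and Frzb for Foxj1 (0.99 to 1.00). Amn is one of the visceral endoderm markers. In culture they were Eomes, Fam216a and Tspan3 for Foxa2 (0.98 to 0.99), Cacnb2, Zswim9 and Man1a for Gsc (0.99), Ttc30b, Ccdc96 and Pou6f1 for Chrd (0.98 to 0.99), Slit1, Eya2 and Rcan2 for Nog (0.99) and Srp54b and Slc25a16 for Foxj1 (0.97 and 0.96). Eomes is a partner of Foxa2 on the anterior mesendoderm list.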

How the data were processed

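All 27 bulk RNA libraries of the series were used. The authors deposited TPM values per gene, made after adapter trimming with cutadapt 2.4, alignment with STAR to mm10 and quantification with StringTie, with GENCODE annotation. TPM sums to 1000000 per library, so read depth is unknown. Single-cell RNA and DNA methylation libraries were not analysed here. The members and lists were chosen with earlier results of these data known. The 15 embryo and 12 culture libraries were fitted separately with limma 3.58.1 (R 4.3.3) on log2(TPM + 1), without covariates, over 11880 and 11541 autosomal protein-coding genes above 2 TPM in at least 3 libraries. P-values were adjusted by Benjamini-Hochberg over all genes tested in a comparison. The authors' own tests used DESeq2 on counts. TPM are not counts, so limma was used here. The fits were run on simulated independent normal values. These held no near-identical replicates or outlying libraries, so that check does not cover such features of the data. The text names all members, up to 4 called genes of a list by absolute fold change in a comparison, and the 3 genes most like each member, except that a few genes are not reported here. Ihh, Thpo, Gm26894, Gsc2 and the list genes given as levels were chosen after their values were seen. Alternatives were another pseudocount, no filter, rescaled TPM (median-of-ratios factors), fits of the compared groups only or of all libraries, a replicate block, an intensity trend, averaged near-identical replicates and leaving out each library. Chosen after the values were seen were leaving out genes that passed the filter through 1 compared group alone, and recounting the lists without each library.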

Additional observations from a re-analysis of the deposited data

Results flagged for a closer look

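The change of each 3D culture against the 2D cells, here called its effect, was compared between ESC-derived and embryo-derived cells. The 2D cells came from ESCs, so the effect in embryo-derived cells also holds the change of origin. As both effects use the same 2D libraries, their difference is the direct contrast of the 3D cultures, tested with limma. It passed the threshold for 4 genes. For Foxa2 the effects were -0.14 and 1.19 (difference -1.33, adjusted p = 0.0157), for Gsc -1.68 and 0.31 (difference -1.98, adjusted p = 7.34e-04), for Chrd 0.05 and 2.16 (difference -2.11, adjusted p = 5.71e-04), and for Foxj1 -0.75 and 0.83 (difference -1.58, adjusted p = 0.00186). Foxa2 lost this call with only the compared groups fitted (limma adjusted p = 0.0864) and with near-identical replicates averaged (adjusted p = 0.0574). It also lost it without embryo-derived replicate 1, at -0.91. Groups of 3 libraries are too small for the test of outlying samples.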

How the results depend on the processing

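The values are TPM without depth, so counting error could not be assessed. Of 136 counts of called members under the alternatives, 128 stayed within 1.5 times the reported count. Of 769 member fold changes, 734 kept their direction and side of the threshold, 9 lost a call, 8 gained one and 18 changed sign, none of which had been called. The cause of these changes was not tested unless said.

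The count of called members from E3.5 to E4.5 was 1 instead of 2 on rescaled TPM. Over the fits leaving out a library it ran from 1 to 2 there, from 1 to 3 for ESC-derived and for embryo-derived 3D against 2D cells, and from 1 to 4 from E6.5 to E7.5. Where a 2D or E7.5 library was left out, Nog, or Shh and Noto, no longer passed the filter and were not tested. Leaving these members out, an alternative chosen after seeing the data, gave 1 called member instead of 2 for ESC-derived 3D against 2D cells and 1 instead of 3 from E6.5 to E7.5. Fold changes that changed sign were, on rescaled TPM, that of Foxa2 between ESC-derived 3D and 2D cells (0.11), with a pseudocount of 0.1 those of Nog (-0.12) and Foxj1 (-0.0044) between ESC-derived 3D cells and EpiLCs and of Shh from E4.5 to E5.5 (0.19), and with near-identical replicates averaged that of Nog between the 3D cultures (0.054). Over the fits leaving out a library, Foxa2 and Chrd between ESC-derived 3D and 2D cells ran from -0.28 to 0.16 and from -0.34 to 0.27, Nog between the 3D cultures from -0.24 to 0.027, and Nog and Foxj1 between ESC-derived 3D cells and EpiLCs from -0.13 to 0.14 and from -0.37 to 0.22. Nog ran from -0.41 to 0.024 from E3.5 to E4.5 and from -0.19 to 0.086 from E6.5 to E7.5, and Shh from -0.27 to 0.29 from E4.5 to E5.5. With a pseudocount of 0.1, Chrd from E4.5 to E5.5 (1.46), Foxj1 from E5.5 to E6.5 (1.09) and Foxa2 from E6.5 to E7.5 (-1.04) became called.

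Same-numbered libraries did not deviate together (mean r of -0.030 in culture and -0.017 in the embryo), so the numbers do not pair them. With the replicate block the counts of called members were 2, 3, 4, 3, 4 and 4 in the culture comparisons and 2, 4, 2 and 3 in the embryo steps, as without it.

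Counts over all genes moved by more than 1.5 times beyond those already given. With a pseudocount of 0.1, genes called higher went from 73 to 129 between ESC-derived 3D and 2D cells, from 228 to 374 (lower, 229 to 345) between the 3D cultures and from 85 to 136 (lower, 57 to 126) into E6.5, and genes called lower from 231 to 354 into E7.5. Between the 3D cultures, genes called lower went from 229 to 100 with near-identical replicates averaged and to 427 without ESC-derived replicate 3. Without EpiLC replicate 1, genes called lower against EpiLCs went from 821 to 544 in ESC-derived 3D cells. In 2D cells they went from 593 to 346, 342 and 375 without EpiLC replicate 1, 2 or 3.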
